A study of Mus musculus with 19 samples.

Results

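The comparison set the MrgprA3- sensory neurons of mice with allergic contact dermatitis (ACD) against those of control mice. It used 10 libraries, 5 of ACD mice and 5 of control mice, out of 19 in the series, taken by their labels and not by any measured value. Allergic contact dermatitis is an itchy inflammation of the skin driven by T cells. It was raised in male C57BL/6 mice aged 2 months with squaric acid dibutylester (SADBE, 0.5% in acetone, 25 µl), put on the shaved abdomen and, days later, on the shaved lower back. Controls were treated with acetone alone. On day 13 the dorsal root ganglia (DRG) T11 to L6, 16 ganglia a mouse, were dissociated and sorted. Mice of both treatments carried a green fluorescent label in their MrgprA3+ neurons, and the labels do not describe that allele further. The MrgprA3- libraries held cells without that label, gated to resemble the labelled neurons in shape. RNA was read from polyadenylated libraries, and the values are FPKM, fragments per kilobase of transcript scaled to the depth of the library, as the authors deposited them.

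The cell bodies of the sensory neurons that innervate skin, muscle and viscera lie in the DRG. Their classes include mechanoreceptors with large axons, peptidergic nociceptors, and 3 classes of small non-peptidergic neurons, NP1, NP2 and NP3. NP2 neurons carry the receptor Mrgpra3 and are known as pruriceptors, and NP3 neurons, which carry the receptor for interleukin-31, are known for itch in inflamed skin. NP1 neurons carry Mrgprd. With the Mrgpra3 neurons removed, the sorted population was a mixture of the other classes.

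Neuronal transcripts were high in all 10 libraries, with Tubb3, a neuronal tubulin, between 4290.16 and 6943.86 FPKM. Mrgpra3 averaged 20.2 FPKM (SD 4.12, n = 5) in control and 19.96 FPKM (SD 3.97, n = 5) in ACD libraries, and lay between 836.10 and 1445.60 FPKM in the MrgprA3+ libraries. Of 24 macrophage and leukocyte markers 16 stayed below 1 FPKM in every MrgprA3- library, among them Ptprc, the pan-leukocyte marker CD45, with at most 0.24 FPKM. Of 15 satellite glia markers 9 stayed below 3 FPKM in every MrgprA3- library, among them Sox10 with at most 1.18 FPKM. Others were higher, such as Apoe between 282.57 and 430.66 FPKM and Fabp7 between 27.82 and 59.58 FPKM. Estimated depth lay between 13.6 and 21.2 M fragments a library. The number of genes above 0 FPKM was 15915 in control and 16001 in ACD libraries (exact two-sided permutation p 0.548, n = 5 and 5). Neither the share of the 20 highest genes, nor the summed FPKM, nor the ribosomal RNA gene Rn28s1 differed past the threshold (adjusted p 0.921 for each of the 5 summaries compared by exact permutation). The control libraries 4 and 5 stood apart in a set of nerve injury genes, which is described with the values it touches.

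Of 11480 genes fitted, 13 passed an adjusted p of 0.05 by limma (Benjamini and Hochberg), which is 0.113% of them. In ACD mice 12 rose (0.105%) and 1 fell (0.00871%). All 13 had ACD and control values that did not overlap, as had 167 genes in all (1.45%), 90 higher (0.784%) and 77 lower (0.671%). At an unadjusted p under 0.05 stood 984 genes (8.57%), 429 higher (3.74%) and 555 lower (4.83%). Differences are given as differences of mean log2(FPKM + 1), ACD minus control, with the standard error of the model (SE). This scale understates the change of genes at low FPKM. Over all genes fitted the median difference was -0.02.

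**Figure D1:**
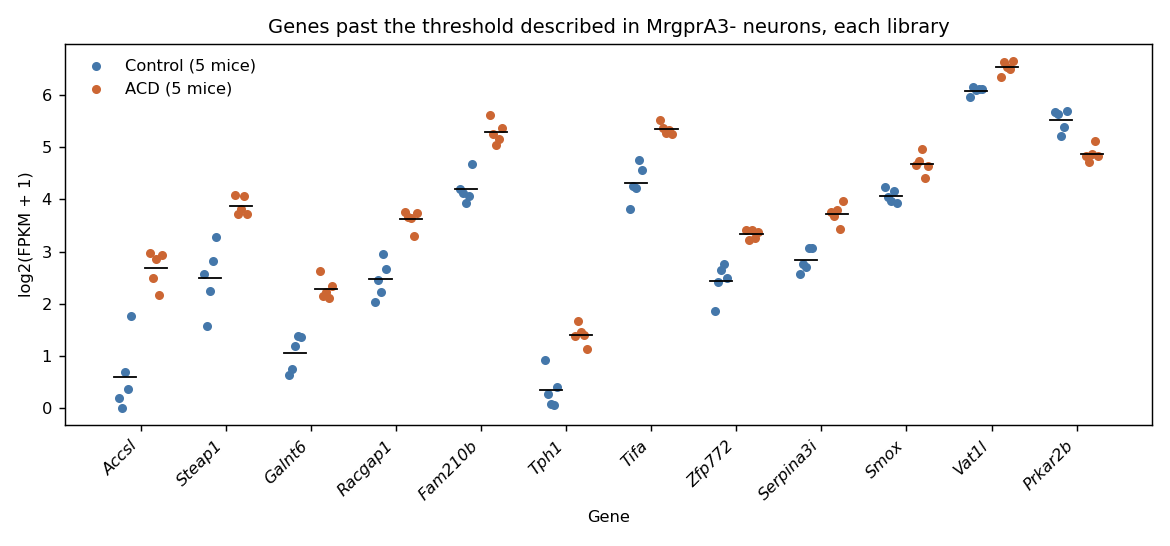
The 12 genes past the threshold that are described here, in the MrgprA3- neurons, as log2(FPKM + 1) on the vertical axis, with a point for each of 5 control and 5 ACD libraries and a line at the group mean. In all 12 genes the 2 groups of points do not overlap, and Prkar2b alone is lower in ACD mice.

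The genes that rose belonged to several kinds of proteins, and none was a receptor or channel of sensory neurons. Several, such as Serpina3i, a serpin of the mouse Serpina3 cluster, and Tifa, an adaptor on the way to NF-kB, are known from inflamed tissue, and others, such as Racgap1, from cell division. The upstream sequences of 4 of them are given here because 3 hold a letter match to the motif of an inflammatory transcription factor and Fam210b, the gene with the smallest p, holds none. Each is the 250 bases before the annotated start of the gene, 5′ to 3′ on the strand of the gene, from RefSeq on GRCm38.p6. Serpina3i lies at chr12:104262872-104263121 (plus strand), Steap1 at chr5:5749318-5749567 (minus strand), Vat1l at chr8:114205390-114205639 (plus strand) and Fam210b at chr2:172345327-172345576 (plus strand). Capitals mark matches to an NF-kB motif (GGG, a purine, any 2 bases, 2 pyrimidines and a C, on either strand), and in Serpina3i also a match to the STAT motif TTCNNNGAA, the second run of capitals.
Serpina3i: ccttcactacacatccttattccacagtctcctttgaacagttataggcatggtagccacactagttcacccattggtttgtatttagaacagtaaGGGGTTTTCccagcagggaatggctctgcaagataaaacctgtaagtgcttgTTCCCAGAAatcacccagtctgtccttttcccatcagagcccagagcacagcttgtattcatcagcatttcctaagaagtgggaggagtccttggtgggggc
Steap1: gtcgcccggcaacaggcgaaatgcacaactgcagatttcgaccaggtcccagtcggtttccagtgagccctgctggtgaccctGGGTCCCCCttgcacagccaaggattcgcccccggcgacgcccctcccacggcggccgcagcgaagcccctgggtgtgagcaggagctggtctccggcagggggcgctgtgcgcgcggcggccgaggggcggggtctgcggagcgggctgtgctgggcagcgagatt
Vat1l: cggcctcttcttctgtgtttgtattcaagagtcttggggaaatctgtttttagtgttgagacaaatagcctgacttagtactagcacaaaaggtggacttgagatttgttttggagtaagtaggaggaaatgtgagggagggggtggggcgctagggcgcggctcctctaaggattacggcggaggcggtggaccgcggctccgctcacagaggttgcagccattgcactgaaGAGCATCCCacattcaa
Fam210b: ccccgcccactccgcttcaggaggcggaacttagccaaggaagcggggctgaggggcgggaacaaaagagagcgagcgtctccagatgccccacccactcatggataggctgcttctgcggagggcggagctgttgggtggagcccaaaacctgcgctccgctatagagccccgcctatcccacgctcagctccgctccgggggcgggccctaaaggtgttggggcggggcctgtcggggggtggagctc
Both strands were searched, and for genes with several annotated starts only the first listed was used. For Accsl, with 3 listed starts, a stretch of bases after that start was not found in a transcript of the gene. Among the 9033 fitted genes with a RefSeq upstream sequence, 29.5% held the NF-kB motif and 6.06% the STAT motif. Of the 12 genes past the threshold with such a sequence 5 held the NF-kB motif, namely Accsl, Serpina3i, Smox, Steap1 and Vat1l, and 1 held the STAT motif. The C/EBP motif TTGCNNAA was held by 1 of the 12 (Zfp772) and by 6.90% of all. The AP-1 motif TGANTCA (3.82% of all) and the CRE motif TGACGTCA (2.89% of all) were in none of the 12. A letter match is not evidence that a factor binds there.

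Tifa, which binds TRAF6 and passes signals on to NF-kB, stood at 13.01, 18.26, 17.56, 25.90 and 22.79 FPKM in control libraries 1 to 5, and at 44.83, 40.39, 37.89, 39.24 and 37.44 FPKM in ACD libraries 1 to 5. Every ACD library was well above every control library. The difference was 1.03 (SE 0.14, adjusted p 0.0085 by limma), from a mean of 19.5 (SD 4.98, n = 5) to 39.96 FPKM (SD 2.96, n = 5). Fam210b, which encodes a protein of mitochondria known from red cell development, stood at 17.38, 16.53, 14.32, 15.86 and 24.65 FPKM in control and 48.27, 37.22, 31.89, 34.93 and 40.14 FPKM in ACD libraries. Its rise was 1.08 (SE 0.14, adjusted p 0.0085). No ACD value of either gene lay within the control range.

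Among the genes past the threshold Accsl had the largest rise on the log2 scale, from near 0 in most control libraries. Its values were 0.15, 0.00, 0.61, 0.29 and 2.39 FPKM in control and 6.88, 4.67, 6.29, 3.51 and 6.67 FPKM in ACD libraries, a difference of 2.09 (SE 0.28, adjusted p 0.0085). Control library 5 lay far above the other controls and still below all ACD libraries. Tph1, the enzyme of the first step of serotonin synthesis outside the brain, was as low in controls, at 0.90, 0.21, 0.05, 0.04 and 0.33 FPKM, against 1.59, 2.2, 1.74, 1.63 and 1.19 FPKM in ACD libraries. Its difference was 1.06 (SE 0.18, adjusted p 0.0315), at levels that hold few fragments. Both genes met the filter of 1 FPKM in 4 libraries through the ACD group. No control library of Tph1, and only control library 5 of Accsl, reached 1 FPKM. The filter thus favoured a rise for both, and their p values carry that limit.

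Galnt6, an enzyme that starts mucin-type O-glycosylation, stood at 0.55, 0.69, 1.27, 1.59 and 1.56 FPKM in control and 5.16, 3.41, 3.69, 3.30 and 4.05 FPKM in ACD libraries (difference 1.23, SE 0.18, adjusted p 0.0085). It too met the filter of 1 FPKM in 4 libraries only with its ACD values, and its p value carries the same limit. Smox, which oxidizes the polyamine spermine, rose from 17.88, 15.43, 14.59, 16.81 and 14.36 FPKM to 24.33, 25.60, 30.49, 20.38 and 23.83 FPKM (difference 0.62, SE 0.11, adjusted p 0.0463). Steap1, of a family of membrane proteins that includes metalloreductases, stood at 4.93, 1.96, 3.74, 6.03 and 8.77 FPKM in control and 15.92, 12.15, 13.07, 15.67 and 12.12 FPKM in ACD libraries (1.38, SE 0.24, adjusted p 0.0463). For each of these genes the lowest ACD library stood above the highest control library.

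Racgap1, a GTPase-activating protein needed for cytokinesis, stood at 3.11, 4.46, 3.65, 6.78 and 5.33 FPKM in control and 12.53, 11.66, 11.53, 8.86 and 12.28 FPKM in ACD libraries (1.15, SE 0.17, adjusted p 0.0085). Of 11 other cell cycle genes fitted none had an unadjusted p under 0.05, and their median difference was 0.05.

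Serpina3i stood at 4.96, 5.78, 5.49, 7.34 and 7.36 FPKM in control and 12.59, 11.80, 12.98, 9.76 and 14.66 FPKM in ACD libraries (0.90, SE 0.14, adjusted p 0.0155). Its paralogs Serpina3n and Serpina3g, named here after their values were seen, were higher in all 5 ACD than in all 5 control libraries without passing the threshold. Serpina3n averaged 237 (SD 41.7) in control and 325 FPKM (SD 29.1) in ACD libraries (0.46, SE 0.11, adjusted p 0.221), and Serpina3g 121 and 151 FPKM (0.32, SE 0.08, adjusted p 0.230). The Serpina3 genes are close paralogs, reads may have been divided among them by the counting, and the value of each is uncertain.

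Zfp772, a zinc finger protein, was at 2.63, 4.32, 5.23, 5.79 and 4.66 FPKM in control and 9.70, 8.36, 9.67, 8.61 and 9.35 FPKM in ACD libraries (0.90, SE 0.16, adjusted p 0.0360). Vat1l, the most abundant gene that rose, was at 61.31, 70.05, 67.16, 68.01 and 68.09 FPKM in control and 80.63, 98.46, 91.91, 90.13 and 99.34 FPKM in ACD libraries. Its difference was the smallest of the 13, at 0.45 (SE 0.08, adjusted p 0.0368), with narrow groups that did not meet.

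Prkar2b, a regulatory subunit of protein kinase A, was the gene that fell. Its control libraries held 50.09, 48.59, 36.00, 40.79 and 50.78 FPKM and its ACD libraries 27.60, 25.34, 28.39, 33.98 and 27.36 FPKM, a difference of -0.64 (SE 0.11, adjusted p 0.0360). The nearest values were 36.00 in control library 3 and 33.98 in ACD library 4.

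Just outside the threshold, at an adjusted p of 0.0828 to 0.0861, stood Elmo1 (0.46), Cdh11 (-0.63), A2m (1.13) and Hspb6 (0.76), none of which overlapped between the groups. Elmo1 helps to activate Rac, Cdh11 is a cadherin, A2m a broad protease inhibitor and Hspb6 a small heat shock protein. A2m stood at 0.73, 0.86, 2.14, 0.3 and 1.42 FPKM in control libraries. It met the filter of 1 FPKM in 4 libraries only with its ACD values, which favoured a rise. Among non-overlapping genes with lower values in ACD mice, the calcium uniporter regulator Micu3 averaged 14.6 FPKM in control and 8.57 FPKM in ACD libraries (-0.71, SE 0.16, adjusted p 0.186). Fam150b, which RefSeq lists as Alkal2, a ligand of the receptor kinase ALK, averaged 7.43 FPKM (SD 1.45) in control and 18.2 FPKM (SD 6.85) in ACD libraries (1.12, SE 0.24, adjusted p 0.186). ACD library 4, at 8.52 FPKM, lay within the control range, and without it the difference of Fam150b was 1.35. Stom, a membrane protein that modulates acid-sensing channels, averaged 27.5 and 47.6 FPKM (0.74, adjusted p 0.230). Its ACD library 4 was at 28.19 FPKM, and without that library the difference was 0.92. Leaving out the lowest ACD library favours a rise, so both differences without it are given with no p.

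The 13 genes were not equally firm. Fam210b, Tifa, Accsl, Galnt6 and Racgap1 passed the threshold with each of the 10 libraries left out in turn, whereas Tph1, Vat1l and Smox did so with 1 of the 10, Prkar2b and Steap1 with 2, Zfp772 with 3 and Serpina3i with 6. Accsl, Galnt6 and Tph1 met the filter only with their ACD values, which favoured a rise in these fits as well. The count was 5 without ACD library 2, 3 or 5, 6 without control library 2 and 8 without control library 1. It was also 0 with the spread between libraries taken over both sorted populations and 0 with no filter on low values, and 4 (Fam210b, Tifa, Accsl and Galnt6) with the mean of the glial markers as a covariate. ACD library 4 held the lowest ACD value for 6 of the 12 genes that rose, and control libraries 4 and 5 the highest control value for 4 each.

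Control libraries 4 and 5 differed from the other 3 controls in genes known to rise in injured sensory neurons. Sprr1a, a gene of regenerating axons, stood at 1.82, 1.06 and 1.09 FPKM in control libraries 1 to 3 and at 75.35 and 90.82 FPKM in control libraries 4 and 5, against 3.38, 10.39, 5.87, 5.29 and 11.74 FPKM in ACD libraries. Thus the ACD values lay above those of 3 controls and far below those of the other two. Atf3, the injury-induced transcription factor, was at 38.08, 32.47 and 31.09 FPKM in control libraries 1 to 3, 75.54 and 104.21 FPKM in controls 4 and 5, and 45.70, 82.17, 39.01, 37.25 and 49.98 FPKM in ACD libraries. Bdnf, a neurotrophin made by nociceptors, was at 29.07, 23.20 and 22.54 FPKM, then 49.75 and 54.20 FPKM, and 64.88, 48.08, 54.65, 49.97 and 56.91 FPKM in ACD libraries. For Bdnf the controls 4 and 5 were level with the ACD libraries.

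The MrgprA3+ libraries with the same numbers showed a like division for Bdnf, with 13.57, 11.18 and 15.43 FPKM in controls 1 to 3, 47.58 and 46.22 FPKM in controls 4 and 5, and 50.12, 48.88, 28.08 and 47.01 FPKM in ACD libraries 1, 2, 4 and 5. Tmem173, which encodes the innate immune adaptor STING, was at 6.55, 6.55 and 6.58 FPKM in MrgprA3- controls 1 to 3, 14.90 and 23.34 FPKM in controls 4 and 5, and 29.76, 29.73, 25.39, 19.04 and 22.02 FPKM in ACD libraries. In the MrgprA3+ controls it was at 1.91, 5.61 and 2.19 FPKM, then 18.28 and 19.70 FPKM. Sprr1a in MrgprA3+ controls reached 1.95 and 5.39 FPKM in libraries 4 and 5, against at most 0.47 in the others. Atf3 showed no such gap there, with 16.04, 15.37 and 11.17 FPKM in MrgprA3+ controls 1 to 3 and 18.04 and 16.32 FPKM in controls 4 and 5. The labels give no difference between these control mice and the other 3, and a cause was not tested.

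**Figure D2:**
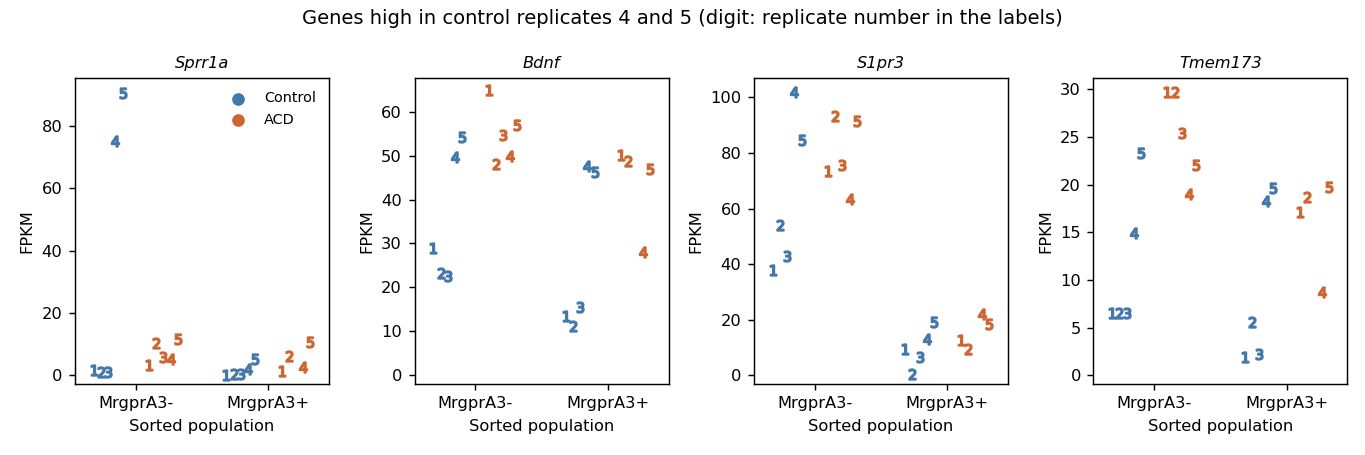
FPKM of Sprr1a, Bdnf, S1pr3 and Tmem173 in every library of both sorted populations, with each library drawn as its replicate number in the labels, controls in blue and ACD in orange. In the MrgprA3- libraries controls 4 and 5 lie above controls 1 to 3 for all 4 genes, and for Sprr1a also above all ACD libraries.

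With control libraries 4 and 5 both left out, a choice made after the data were seen, 24 genes passed by limma, all higher in ACD mice, against 13 with all libraries. Of the 24, 9 were among the 13, and Prkar2b, Tph1, Vat1l and Smox were lost (adjusted p 0.0868 to 0.114). Of the other 15, 14 were higher in both control 4 and control 5 than in the other 3 controls. The choice of libraries thus favours genes that move with Sprr1a, and the 15 are given as values, with no p. Bdnf then differed by 1.11, against 0.69 (SE 0.23, adjusted p 0.492) with all libraries, and Tmem173 by 1.77, against 1.22 (adjusted p 0.400). Sprr1a turned from -0.33 (adjusted p 0.960) to 1.75. Further genes were Timp1, an inhibitor of metalloproteinases (2.06), Sectm1b (1.63), Angptl2 (1.53), the injury-induced tubulin Tubb6 (0.99), the serpin Serpinb1a (0.90), the sphingosine-1-phosphate receptor S1pr3 (0.81), Laptm4b (0.71) and Serpina3n (0.63). Timp1 reached 1 FPKM in no control library but 4 and 5, so it met the filter only with its ACD values.

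The genes of inflammation, itch, neuron class and stress were read from 44 lists, of which 1033 distinct genes were matched and 756 fitted. None passed the threshold by limma (smallest adjusted p 0.214), and 75 had an unadjusted p under 0.05, 38 higher and 37 lower, or 9.92% against 8.57% over all genes. The lists are therefore described by their medians and counts, with no test. For counts of positive and negative differences, the share of all genes fitted with a positive difference was 45.1%.

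Receptors of itch mediators stood mostly higher in ACD mice. Of 32 genes on that list 22 were fitted, 19 had a positive difference, and the median was 0.16 against -0.02 over all genes, with 4 of 22 at an unadjusted p under 0.05, all higher, against 3.74% of all genes in that direction. Il31ra and Osmr, which together form the receptor for interleukin-31, averaged 54.1 (SD 6.84) and 30.6 FPKM (SD 4.58) in control and 70.3 (SD 14.2) and 38.5 FPKM (SD 5.90) in ACD libraries (0.36, SE 0.13, adjusted p 0.492, and 0.32, SE 0.12, adjusted p 0.500). Il31ra was at 49.13, 55.80, 62.78, 45.45 and 57.19 FPKM in control and 77.88, 53.85, 72.29, 58.61 and 88.67 FPKM in ACD libraries, with ACD libraries 2 and 4 inside the control range. Il4ra, the shared chain of the receptors for interleukins 4 and 13, averaged 20.7 and 25.7 FPKM (0.29, SE 0.12, adjusted p 0.527), and the histamine receptor Hrh2 1.18 and 1.87 FPKM (0.39, SE 0.15, adjusted p 0.505). Hrh2 stood at 1.68, 0.98, 1.31, 0.96 and 0.99 FPKM in control libraries. It met the filter of 1 FPKM in 4 libraries only with its ACD values. The filter thus favoured a rise of Hrh2, and its place among the 4 of 22 carries that limit. Without any 1 of the 10 libraries the median of the list lay between 0.15 and 0.22. The histamine receptor Hrh1 (2.17 against 2.28 FPKM), the irritant channel Trpa1 (41.6 against 41.5 FPKM) and the capsaicin receptor Trpv1 (194 against 229 FPKM, 0.22, SE 0.16) overlapped between the groups.

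NP3 markers, of which Il31ra and Osmr are part, had a median of 0.14 over 12 genes fitted, which was 0.01 without control library 4 and ranged up to 0.21 with another library left out. The peptides of that class varied. Nppb differed by 0.12 (SE 0.34), Sst by -0.18 (SE 0.21) and Nts by -0.52. NP2 markers had a median of 0.10 over 8 genes, or 0.04 without ACD library 2.

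**Figure D3:**
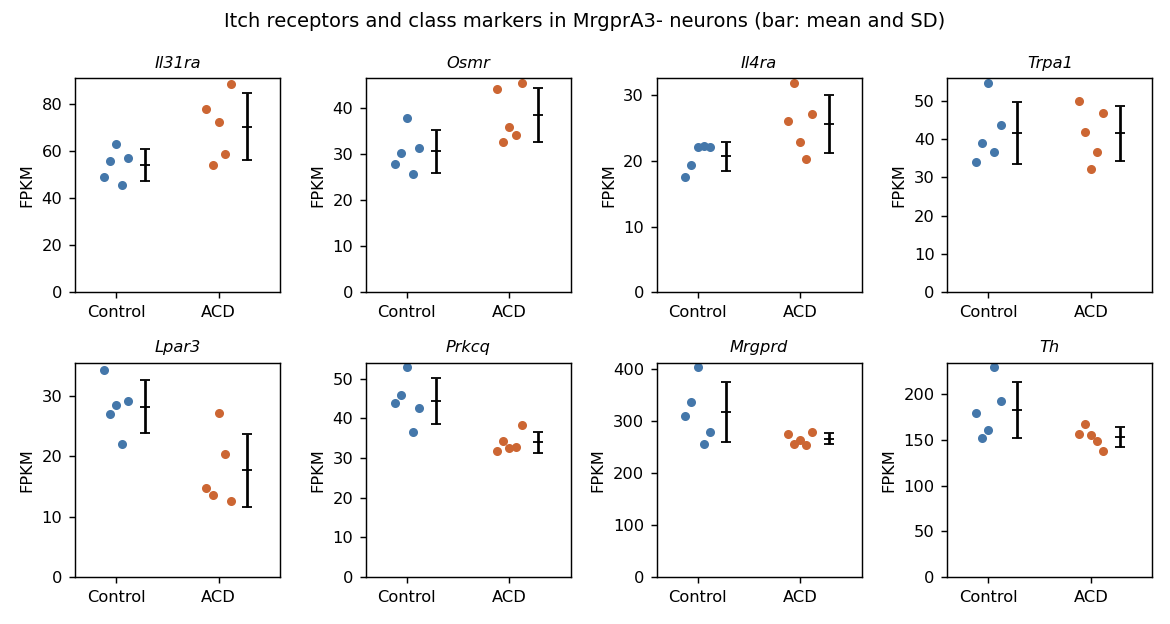
FPKM in each control and ACD library of MrgprA3- neurons, with the mean and SD beside the points, for 4 itch and irritant receptors (upper row) and 4 markers of NP1 and low-threshold C fibre neurons (lower row). Il31ra and Osmr are higher on average in ACD mice with overlapping points, Trpa1 is level, and the lower row is lower on average in ACD mice.

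Markers of NP1 neurons and of low-threshold C fibres, which sense gentle touch, stood lower in ACD mice. All 12 NP1 markers were fitted, 11 had a negative difference, the median was -0.28, and 6 had an unadjusted p under 0.05, all lower, against 4.83% of all genes in that direction. Lpar3, a receptor for lysophosphatidic acid, was at 34.28, 27.04, 28.47, 22.03 and 29.11 FPKM in control and 14.71, 13.63, 27.12, 20.28 and 12.58 FPKM in ACD libraries (-0.69, SE 0.18, adjusted p 0.347). ACD library 3 was level with the controls. Prkcq, protein kinase C theta, averaged 44.3 and 33.9 FPKM (-0.37, SE 0.10, adjusted p 0.347), Cd55, a brake on complement, 248 and 193 FPKM (-0.36, adjusted p 0.505) and Mrgprd 316 (SD 57.4) and 265 FPKM (SD 10.4) (-0.24, SE 0.10, adjusted p 0.528). Gna14 (130 against 125 FPKM) and P2rx3 (197 against 179 FPKM) were closer to level.

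All 10 markers of low-threshold C fibres had a negative difference, with a median of -0.26 and 3 of 10 at an unadjusted p under 0.05, all lower, against 4.83% of all genes in that direction. Th, the enzyme of catecholamine synthesis that marks these cells, averaged 183 (SD 30.5) and 153 FPKM (SD 10.7) (-0.24, SE 0.10, adjusted p 0.527), the mechanosensitive channel Piezo2 24.7 and 20.2 FPKM (-0.29, SE 0.13, adjusted p 0.542) and the transcription factor Pou4f2 3.14 and 1.94 FPKM (-0.48, SE 0.18, adjusted p 0.505). Runx1, a transcription factor of non-peptidergic neurons, averaged 16.3 and 10.9 FPKM (-0.54, SE 0.16, adjusted p 0.400). With any 1 library left out the NP1 median lay between -0.33 and -0.18, the last without control library 3. That of low-threshold C fibre markers lay between -0.33 and -0.15, the last without control library 4. Control libraries 4 and 5 held the highest mean log2 values of that list, 3.93 and 4.01, against 3.52 to 3.79 in the other controls and 3.36 to 3.60 in ACD libraries. Without both, the median of the list was -0.15, and that of NP1 markers -0.40. Mean log2 values of NP1 markers were 6.18, 6.11, 6.35, 5.75 and 5.99 in control libraries 1 to 5 and 5.65 to 5.90 in ACD libraries. Control library 4 thus lay within the ACD range. In a sorted mixture, fewer cells of a class and less RNA of its markers per cell cannot be told apart.

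Markers of the other classes showed no such lean. Peptidergic markers had a median of -0.01 over 16 genes and markers of large diameter neurons 0.03 over 18. Calca, the peptide CGRP, averaged 3415 (SD 650) and 3345 FPKM (SD 314), Tac1, the precursor of substance P, 1112 and 995 FPKM (-0.18, SE 0.14), the peptide Gal 142 and 144 FPKM and Nefh, a neurofilament of large neurons, 79.4 and 80.9 FPKM. Of the 16 peptidergic markers 1 stood higher at an unadjusted p under 0.05 and 2 stood lower, against 3.74% and 4.83% of all genes. The higher one was Kit, at 22.7 and 31.0 FPKM (0.48, SE 0.18, adjusted p 0.505). The differences on that list ranged from -0.66 to 0.48. The sodium channels of nociceptors Scn9a, Scn10a and Scn11a differed by -0.02, -0.20 and -0.11.

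**Figure D4:**
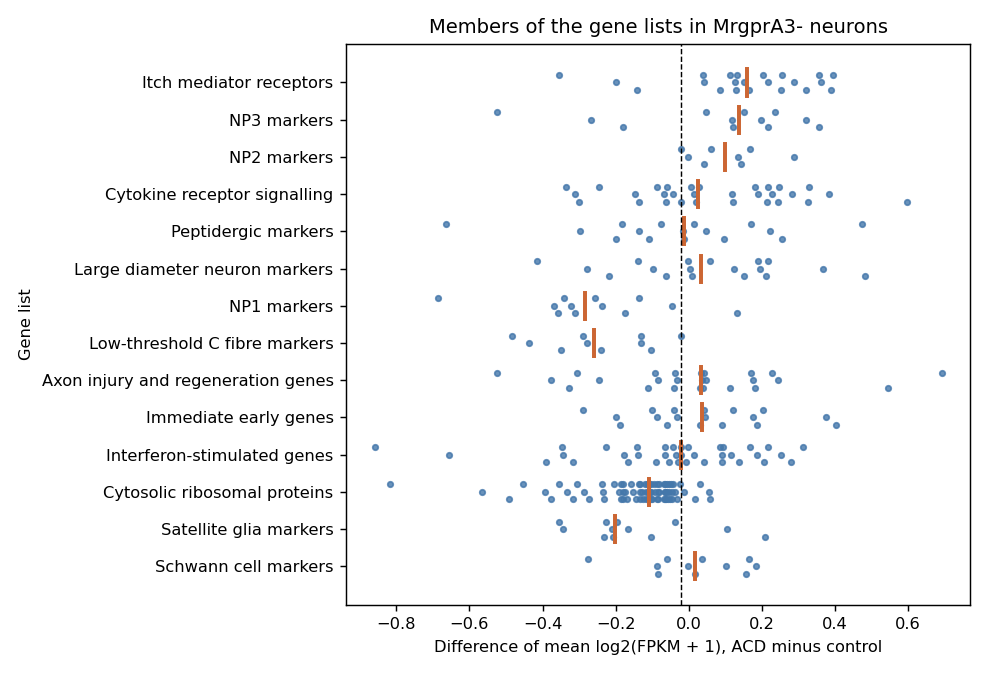
Each point is a fitted member of a gene list, placed by its difference of mean log2(FPKM + 1), ACD minus control, with the list's median as an orange bar and the median over all genes (-0.02) as a dashed line. Itch mediator receptors lie mostly to the right, while NP1 markers, low-threshold C fibre markers and ribosomal proteins lie mostly to the left.

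As groups, signalling and stress genes stood near the median of all genes. Cytokine receptor signalling had a median of 0.02 over 30 genes, with 5 of 30 at an unadjusted p under 0.05, all higher, against 3.74% of all genes in that direction. The Toll and interleukin-1 adaptor Myd88 averaged 6.86 and 10.7 FPKM (0.60, SE 0.19, adjusted p 0.414), Stat6, which acts below the interleukin-4 receptor, 55.6 and 64.7 FPKM (0.21, SE 0.08), and the NF-kB subunit Rela 20.5 and 24.5 FPKM (0.25, SE 0.10). Interferon-stimulated genes had a median of -0.02 over 37, with Ifit3 at 13.2 (SD 6.76) and 6.47 FPKM (SD 2.00) (-0.86, SE 0.25, adjusted p 0.400) and Ifi27l2a at 3.65 and 2.01 FPKM (-0.66, SE 0.20, adjusted p 0.400). Control library 5, at 25.07 FPKM, was the highest of all for Ifit3. Immediate early genes had a median of 0.04 over 18, with the stress gene Gadd45g at 83.9 and 108 FPKM (0.38, SE 0.11, adjusted p 0.412). Nerve injury genes had a median of 0.03 over 25, of -0.07 to 0.12 with 1 library left out, and of 0.14 without control libraries 4 and 5. Synaptic vesicle genes divided: Syt2 (4.89 and 9.05 FPKM, 0.80, SE 0.18, adjusted p 0.214) and Sv2b (19.8 and 28.8 FPKM, 0.52, SE 0.14) stood higher and Synpr (346 and 246 FPKM, -0.50, SE 0.16) lower.

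Cytosolic ribosomal protein genes stood lower in 77 of 81, with a median of -0.11 (-0.17 to -0.06 with 1 library left out), and none had an unadjusted p under 0.05. Of all genes fitted 45.1% stood higher. Mean log2 values of the list were 6.40, 5.76, 6.06, 6.03 and 5.77 in ACD libraries 1 to 5, against 5.96 to 6.31 in controls. ACD libraries 2 and 5 alone lay below the control range, and ACD library 1 lay above it. Nuclear genes of oxidative phosphorylation had a median of -0.08 over 75. Among markers of other cells, satellite glia genes were lower in 10 of 12 fitted (median -0.20), with Glul at 25.8 and 20.2 FPKM (-0.35, SE 0.11, adjusted p 0.414). The summed level of that list ranged from 473 to 599 FPKM in control and from 410 to 598 FPKM in ACD libraries. Schwann cell genes had a median of 0.02 over 11, with summed levels of 1224 to 1491 and 1252 to 1371 FPKM. The 24 macrophage and leukocyte markers summed to 7.39 to 22.4 FPKM in control and 8.93 to 34.3 FPKM in ACD libraries, the highest in ACD library 2, where Lyz2 was at 13.15 FPKM. The part of these cells in the differences above was not tested, except that 4 of the 13 genes kept the threshold with the glial mean as a covariate.

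The MrgprA3+ libraries gave a second reading of the 13 genes. It cannot be taken as independent, since the labels imply, without stating it, that same-numbered libraries of a treatment share a mouse. In a fit of those 9 libraries alone, 5 control and 4 ACD, 0 of 10615 genes passed by limma, 591 had an unadjusted p under 0.05 and the smallest adjusted p was 0.146. Of the 12 genes that rose, 11 had a higher mean log2 value in the MrgprA3+ ACD libraries, and Zfp772 a lower one (-0.57, SE 0.48). Prkar2b was lower in both populations (-0.25, SE 0.26, in MrgprA3+). Vat1l was at 130.03, 123.73, 120.49, 115.08 and 124.60 FPKM in MrgprA3+ controls and 189.98, 179.22, 169.54 and 168.77 FPKM in MrgprA3+ ACD libraries, without overlap (0.52, SE 0.12, adjusted p 0.644). Galnt6 was the other gene without overlap there, at 0.03, 0.10, 0.07, 0.35 and 1.46 FPKM in control and 2.49, 4.54, 2.11 and 2.81 FPKM in ACD libraries (1.56, SE 0.39, adjusted p 0.698). In this population, too, Galnt6 met the filter only with its ACD values. Tifa differed by 0.93 (SE 0.28), Fam210b by 1.17 (SE 0.50) and Steap1 by 1.45 (SE 0.57) in MrgprA3+ neurons, with groups that overlapped. Accsl reached 10.03 FPKM in MrgprA3+ control library 5, above all 4 ACD libraries, while 3 of its controls were listed at 0. Of the 12 genes fitted there 6 had an unadjusted p under 0.05, against 591 of all 10615 genes fitted there, and Tph1 was too low to be fitted. The shares of all genes that were higher, or without overlap, in the MrgprA3+ libraries were not counted. The counts of 11 higher and of Vat1l and Galnt6 without overlap thus have no background beside them.

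**Figure D5:**
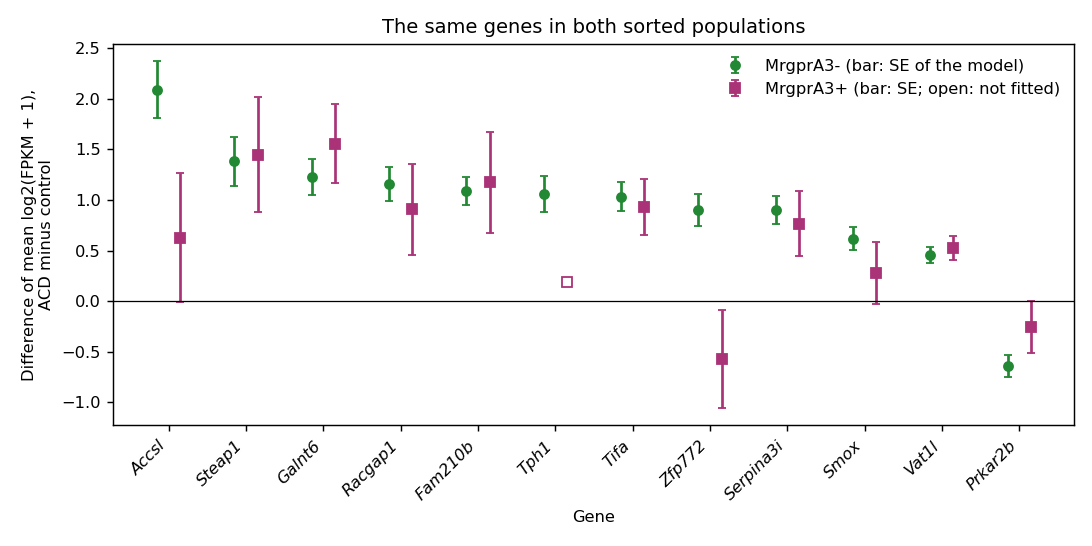
Difference of mean log2(FPKM + 1), ACD minus control, of the same 12 genes in MrgprA3- (green circles) and MrgprA3+ neurons (purple squares), with bars for the SE of each model and an open square for a gene not fitted. Of these, Zfp772 alone has opposite signs, and the MrgprA3+ bars are wider for most genes.

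No difference between the effects in the 2 populations passed the threshold. In a limma fit of all 19 libraries with no block, 0 of 11996 genes had an interaction at an adjusted p under 0.05 (0%), and 553 had an unadjusted p under 0.05 (4.61%). With libraries of the same number and treatment as a block the counts were 0 and 621. For Zfp772 the effect in MrgprA3- neurons exceeded that in MrgprA3+ neurons by 1.48 (SE 0.51, adjusted p 0.994), and for Vat1l it fell short by 0.07 (difference -0.07, SE 0.12, adjusted p 0.994). A difference was therefore not shown for these genes, and with so few libraries this does not show that the populations responded alike.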

How the data were processed

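Polyadenylated RNA of sorted neurons was sequenced in 19 libraries, of which the 10 of MrgprA3- neurons, 5 a group by their titles, enter the comparison. The FPKM values are those the authors deposited in 1 table. Reads were aligned with Bowtie2 to mm9, per the submitters' processing notes, and no source used here gives the versions, the annotation, the quantifier or the strandedness. Read counts were not used here. Instead, depth was inferred from the steps between low values in 1080 single-transcript genes of 300 to 900 bp. It came to 13.6 to 21.2 M fragments, with 72.2 to 79.3% of values within 0.2 of a whole fragment. For a depth fixed beforehand 40% would be so by chance. Each depth was the best fit to the same values, so the chance share here is higher and was not computed. The depths are estimates, so no count test was run. The number of fragments limits the precision of genes near 1 FPKM most.

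Of 18666 genes in the table (33 symbols damaged, 25 restored), 11480 reached 1 FPKM in 4 or more of those 10 libraries and were fitted as log2(FPKM + 1) with limma 3.58.1 in R 4.3.3, with trended and robust variances and Benjamini and Hochberg adjustment over all genes fitted, at a threshold of 0.05. The interaction was fitted over all 19 libraries with no block, and as an alternative with a block for libraries of the same number and treatment, which the labels imply but do not state to be 1 mouse (statmod 1.5.0, correlation 0.062). Library summaries were compared by exact two-sided permutation, whose smallest possible p with 5 and 5 is 0.00794 (scipy 1.17.1). The mice are the replicates. The fits were tested on simulated data.

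Some genes, 1 of them past the threshold, are counted but not reported here. The genes named were the others past the threshold, and otherwise taken from up to 3 genes of the smallest p on each list, 32 fixed genes and the non-overlapping genes of largest difference. A2m, Fam150b, Serpina3n, Serpina3g, Serpinb1a, Sectm1b, Elmo1, Cdh11, Hspb6, Tmem173, Timp1, S1pr3, Tubb6, Laptm4b and Angptl2 were chosen after their values were seen. The members and lists were chosen with earlier results of these data known. Alternatives changed the pseudocount, the filter, the scaling, the variance model, library weights, a replicate block, a glial covariate and the libraries used. Upstream sequences came from RefSeq on GRCm38.p6, and coordinates of mm9 were not used.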

Additional observations from a re-analysis of the deposited data

Results flagged for a closer look

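In 4 of 90 groups of 5 libraries looked at, 1 library lay apart from the others by Dixon's test, where chance gives about 1 in 20. Accsl stood at 2.39 FPKM in control library 5, against 0 to 0.61 FPKM in the other controls. Racgap1 stood at 8.86 FPKM in ACD library 4, against 11.53 to 12.53 FPKM in the other ACD libraries. Atf3 stood at 82.17 FPKM in ACD library 2, against 37.25 to 49.98 FPKM in the others. Tlr4, the receptor for bacterial lipopolysaccharide, stood at 0.84 FPKM in control library 1, against 1.93 to 2.33 FPKM in the other controls. Causes were not tested.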

How the results depend on the processing

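The count of 13 genes became 6 with a pseudocount of 0.1, 8 with a filter at 5 FPKM, 8 without trended and robust variances, 4 with the glial covariate, 0 with no filter (1335 at an unadjusted p under 0.05) and 0 with a spread shared over all 4 groups (210 at an unadjusted p under 0.05). It was 24 with control libraries 4 and 5 left out, an alternative chosen after seeing the data, and 5 to 13 with 1 library left out. It stayed within 1.5 times under a pseudocount of 5 (13), median-ratio rescaling (13), quantile normalization (12) and library weights (15). With a replicate block the count was 2 (Fam210b and Accsl). ACD and control libraries of the same number came from different mice, their deviations correlated at -0.36 to -0.02, and none correlated best with its own number, so the numbers do not pair them. The interaction count was 0 under each alternative run. No gene past the threshold changed sign under any alternative run. Sprr1a did without control libraries 4 and 5 (-0.33 to 1.75), as did the medians of peptidergic markers (-0.01 to 0.06) and interferon-stimulated genes (-0.02 to 0.08), while that of large diameter neuron markers (0.03) reached -0.04 with 1 library left out. With 1 library left out the medians of nerve injury genes (0.03) and immediate early genes (0.04) reached -0.07 and -0.03. That of synaptic vesicle genes went from 0.01 to -0.03 without control libraries 4 and 5. Medians of some other lists near 0 also changed sign. The filter at 5 FPKM removes Tph1, Accsl and Galnt6 by construction, since few of their values reach it. The cause of the other changes was not tested.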
